A study of Caenorhabditis elegans with 2 samples.

Results

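Secretory and endosomal traffic genes carry proteins into the endoplasmic reticulum, between membranes and to lysosomes. They were examined here for binding of TLF-1, a TBP-like factor of Caenorhabditis elegans. The members were the protein-coding genes whose symbols begin with sec-, vps-, rab-, arf-, copb-, exoc- or exo- followed by a number, with copa-1, copd-1, cope-1, copg-1 and copz-1. The WBcel235 annotation of Ensembl release 115 held 84 such genes among 19973 protein-coding genes. By symbol they were 4 translocon and signal peptidase genes, 14 coat genes, 3 ARF genes, 8 exocyst genes, 2 SNARE genes, 31 VPS genes, 20 RAB genes and 2 others. The last pair, exo-1 and exo-3, goes against the label, since they encode an exonuclease and an AP endonuclease of DNA repair, so 82 members are traffic genes.

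Chromatin immunoprecipitation and sequencing was done with an anti-GFP antibody on whole worms of strain OP749, which carries the integrated transgene wgIs749 (tlf-1::TY1::EGFP::3xFLAG with unc-119(+)) in an unc-119(tm4063) background. The worms were young adults of mixed sex at 65.5 hours, synchronized from starved L1 larvae after bleaching. There was 1 group with 2 biological replicates and no untagged or second genotype among the samples used here, so no comparison over samples could be tested. Both replicates carried the same transgene, the expression of which was not compared with that of the endogenous gene. Fewer bound cells and weaker binding per cell cannot be told apart in whole worms.

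The data were the 4 peak lists that the authors deposited on assembly ce11. The replicate 1 list held 24495 peaks, the replicate 2 list 23453, the list called on both replicates together (the pooled list) 28153, and the list kept by reproducibility between the replicates (irreproducible discovery rate, the IDR list) 1880. Each peak has a signal value of the authors and a summit. The signal ranks peaks within 1 list, and rank 1 is the strongest. A gene was counted when a summit lay between 500 bp upstream and 100 bp downstream of its annotated start, here called its promoter window. In the IDR list 76.3% of peaks were 404 bp wide with the summit at the centre, as were 11 of the 14 member peaks, so those summits locate a region rather than a base.

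Proteins enter the secretory route through the SEC61 channel of the endoplasmic reticulum. COPII coats form vesicles that leave it, COPI coats act in return from the Golgi, and the small GTPases of the ARF and RAB families mark membranes and recruit coats and tethers. The exocyst tethers vesicles at the plasma membrane. VPS proteins, named for yeast mutants in vacuolar protein sorting, include the ESCRT, retromer, HOPS, CORVET and GARP complexes of the endosomal route.

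TLF-1 lay in the promoter windows of 14 of the 84 members in the IDR list, or 16.7% (95% Wilson interval 10.2 to 26.1%), while 5.28% of all protein-coding genes had such a summit. Of the 82 traffic genes, 13 had one (15.9%). In the pooled list 58 of the 84 members had a promoter summit (69.0%, interval 58.5 to 77.9%), while 25.7% of all coding genes did. Of the 84 members, 49 had a summit in the replicate 1 list (58.3%) and 45 in the replicate 2 list (53.6%), against 23.1% and 22.7% of all coding genes. Both replicate lists held a summit for 38 members (45.2%), against 14.6% of all coding genes. Of the 44 members with a pooled but no IDR summit, 24 had a summit in both replicates, and 22 members had none in any list. No share over all coding genes is given for these last counts, so they are a description only. The members' shares lay above the background in every list, though the lists are not independent of each other. No test was made of these differences, because the list was proposed with results of these data in view, and the intervals cover counting error only.

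**Figure D1:**
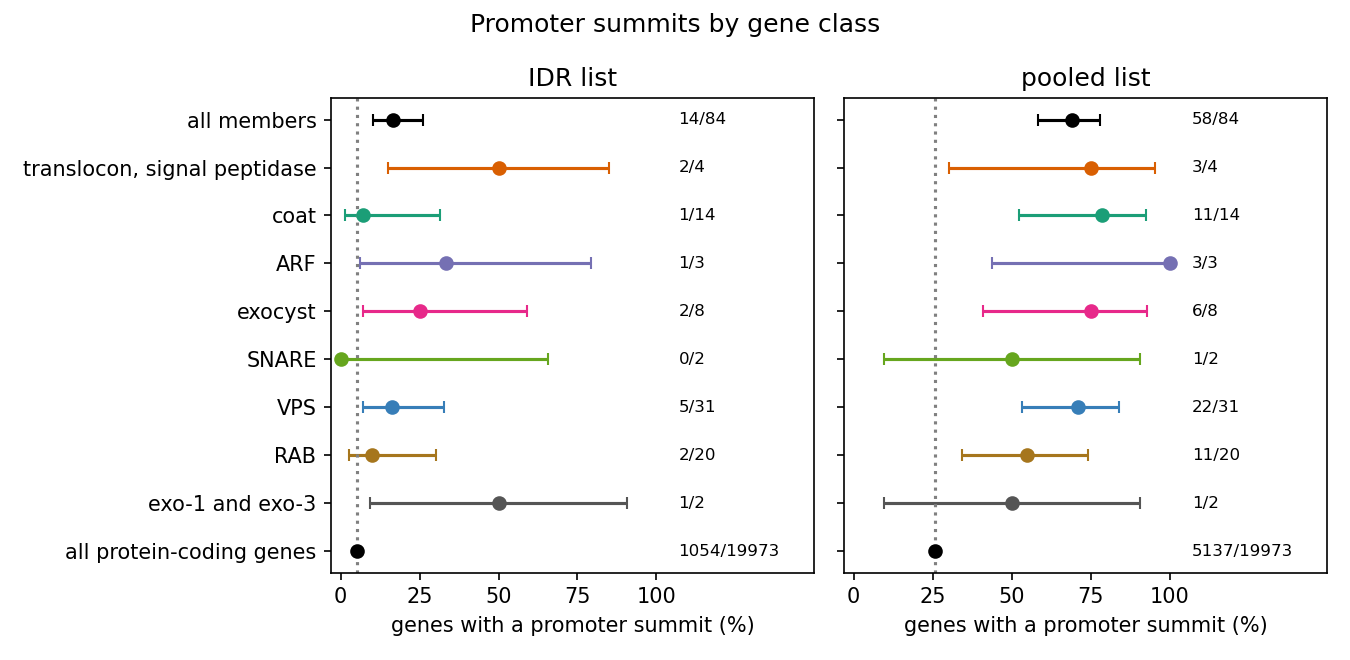
Share of genes with a promoter summit (percent) in the IDR list (left) and the pooled list (right), for all members, for each class, and for all protein-coding genes at the bottom. Points are shares, bars are 95% Wilson intervals, fractions give genes with a summit over genes in the class, and the dotted line is the share of all protein-coding genes. The 84 members lie at 16.7% and 69.0%, all coding genes at 5.28% and 25.7%.

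The 2 strongest member peaks lay in the promoter windows of genes for subunits of the SEC61 channel, though 1 of them was nearer to trap-3. The 1 coat gene with an IDR summit ranked 596. By class, IDR summits were found at 2 of 4 translocon and signal peptidase genes (interval 15 to 85%), 1 of 14 coat genes (1.27 to 31.5%), 1 of 3 ARF genes (6.15 to 79.2%), 2 of 8 exocyst genes (7.15 to 59.1%), 5 of 31 VPS genes (7.09 to 32.6%) and 2 of 20 RAB genes (2.79 to 30.1%). Neither SNARE gene, sec-20 or sec-22, had one, and the pooled summit of sec-22 ranked 10349. The intervals of all classes overlapped each other, and those of the coat, RAB and SNARE genes include the 5.28% of all coding genes.

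**Figure D2:**
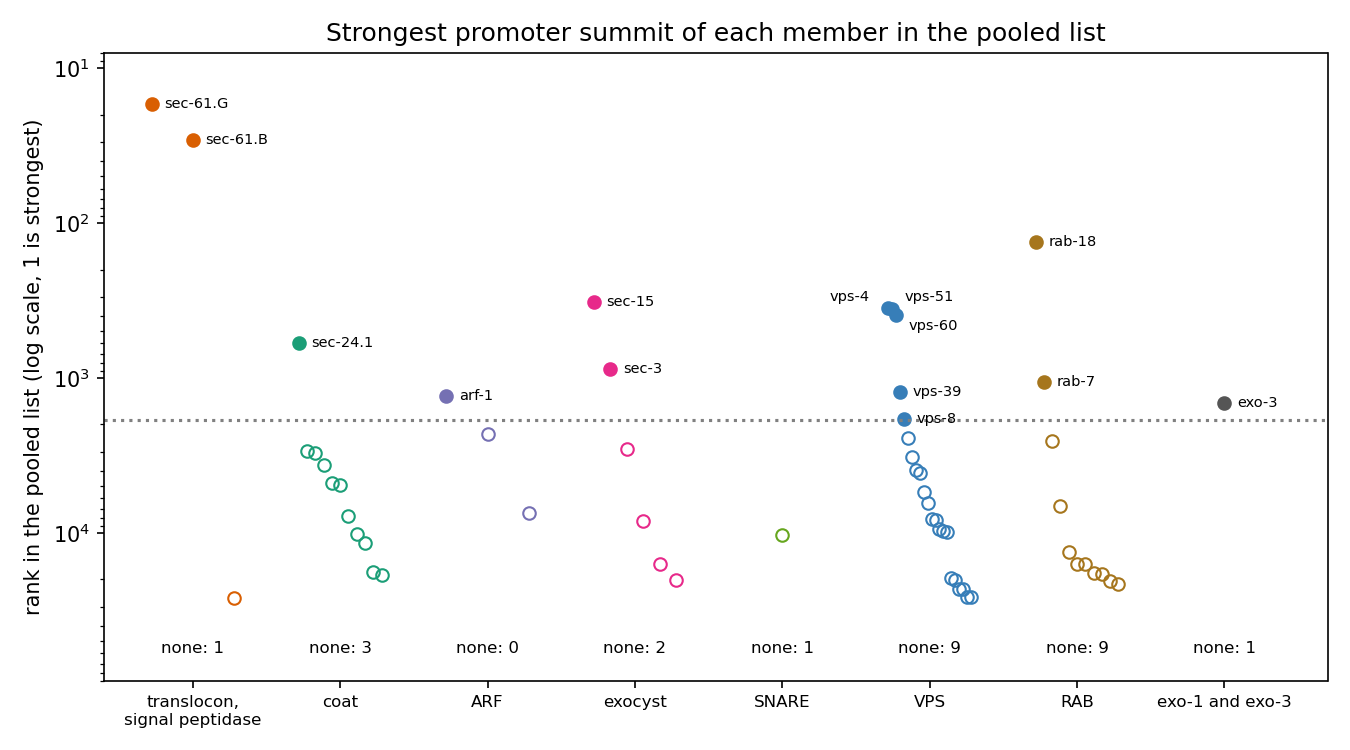
Rank of the strongest promoter summit of each member in the pooled list (log scale, 1 is strongest), by class. Filled points are members with an IDR summit, open points have a pooled summit only, and the number of members with no pooled summit stands below. The dotted line is rank 1880. The sec-61.G and sec-61.B points lie at ranks 17 and 29, above all other members.

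The strongest member peaks lay in the windows of translocon genes. The gene sec-61.G (WBGene00001303, chrV:10896658-10897143, minus strand) encodes the gamma subunit of the channel. Its peak, chrV:10897207-10897552, had a summit 209 bp upstream of the start, in intergenic sequence. The signal was 264 in replicate 1 (rank 19), 316 in replicate 2 (rank 16) and 581 in the IDR list (rank 17). The beta subunit gene sec-61.B (WBGene00021427, chrIV:2388185-2388675, minus strand) had a summit 474 bp upstream, in the peak chrIV:2388985-2389314. Its signal was 237 in replicate 1 (rank 33), 276 in replicate 2 (rank 28) and 512 in the IDR list (rank 29). That summit also lay 296 bp upstream of the divergent gene trap-3, which encodes a subunit of the translocon-associated protein complex, and within the non-coding RNA gene Y38F2AR.17. Both replicates thus placed these peaks among their strongest 33.

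The 101 bases around each of these summits are shown because they are the strongest binding positions at traffic genes and are rich in the pair CG. They are written 5′ to 3′ on the strand of the gene, from the RefSeq copy of WBcel235, with capitals marking CG pairs. The stretch for sec-61.G is chrV:10897302-10897402 and that for sec-61.B is chrIV:2389099-2389199.

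sec-61.G: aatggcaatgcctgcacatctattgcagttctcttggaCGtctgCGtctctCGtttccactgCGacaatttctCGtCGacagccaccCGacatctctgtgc
sec-61.B: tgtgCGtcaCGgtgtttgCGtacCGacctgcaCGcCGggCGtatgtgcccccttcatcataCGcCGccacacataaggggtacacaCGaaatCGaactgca

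They hold 7 and 11 CG pairs and are 52.5% and 58.4% G or C. In the 201 bp around the summit, the 14 member peaks had a median of 12 CG pairs and a GC content of 41.8%. All 836 IDR peaks with a summit in a coding promoter window had a median of 11 CG pairs and 40.3%. Windows of the same length centred 100 bp upstream of all coding gene starts had 5 CG pairs and 32.8%. The member peaks were thus close to other promoter peaks in composition, and both lay above the windows at all starts.

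The remaining translocon and signal peptidase genes had no IDR summit in their windows. For sec-61.A, which encodes the alpha subunit that forms the channel, the nearest IDR summit lay 145 bp downstream of the start, outside the window, and it ranked 434. Only the replicate 2 list held a summit in its window, with a signal of 27.3 (rank 6163). The signal peptidase gene sec-11 had a pooled summit with a signal of 20.7 (rank 26326 of 28153). Its start lies within 500 bp downstream of rpb-7 on the same strand, a position called operon-like here.

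Among coat genes, sec-24.1 had an IDR summit. It encodes a cargo-binding subunit of COPII (WBGene00004755, chrIV:11561986-11566194, minus strand). The peak chrIV:11566141-11566544 had its summit 149 bp upstream of the start. Signal was 69.0 in replicate 1 (rank 680) and 76.3 in replicate 2 (rank 683), and 148 in the IDR list (rank 596). The replicates placed this peak within 3 ranks of each other. The summit also lay within the non-coding RNA genes F12F6.13 and F12F6.14. Its 101 bases, chrIV:11566293-11566393, hold 11 CG pairs and are 58.4% G or C.

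sec-24.1: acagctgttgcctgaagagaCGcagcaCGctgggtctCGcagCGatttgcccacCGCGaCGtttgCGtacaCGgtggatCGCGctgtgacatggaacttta

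Weak summits were common at coat genes. All 7 COPII genes had a summit in the pooled list, with a median signal of 35.2, against 25.7% of all coding genes. Of the 7 COPI genes, 4 had one, with a median of 50.6, and none had an IDR summit, which leaves a Wilson interval of 0 to 35.4%. The pooled intervals of COPII and COPI overlap, and the replicate lists did not separate them. Replicate 1 held a summit at 5 of 7 genes of each, and replicate 2 at 5 of 7 COPII and 4 of 7 COPI genes. The sec-23 window had a summit in neither replicate list, that of sec-12 only in replicate 1 and that of sec-31 only in replicate 2. The strongest pooled summits at coat genes without an IDR summit were those of sec-24.2, a paralog of sec-24.1, with a signal of 66.1 (rank 2949), and of copb-2, a COPI subunit, with 64.9 (rank 3050). In replicates 1 and 2 the signal was 27.5 and 39.5 at sec-24.2, and 33.9 and 34.6 at copb-2. The lowest signal in the IDR list was 83.6. The genes copb-1 and copd-1 had no promoter summit in any list, and sec-31 had an IDR summit 952 bp upstream (rank 514), outside its window.

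ARF genes all had a pooled summit. The gene arf-1 (WBGene00000182, chrIII:5714886-5717586, plus strand), whose product recruits COPI, had an IDR summit 36 bp downstream of its start, in its 5′ untranslated region. Its signal was 38.6 in replicate 1 (rank 2352), 68.5 in replicate 2 (rank 861) and 101 in the IDR list (rank 1315). The summits of the strongest overlapping peak of each replicate lay 247 bp apart, the largest gap at any member peak. Each replicate had 2 overlapping peaks there. It is in operon-like position downstream of rbm-26. The pooled summit of arf-6, which acts at the plasma membrane, had a signal of 75.3 (rank 2306), with 33.6 in replicate 1 and 36.8 in replicate 2.

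Both exocyst genes with an IDR summit lie on X, where 2.42% of coding genes had one. The gene sec-15 (WBGene00016188, chrX:8831737-8835715, minus strand), a subunit that binds RAB GTPases in other species, had a summit 359 bp upstream of its start in the peak chrX:8835872-8836275. The signal was 115 in replicate 1 (rank 220), 82.8 in replicate 2 (rank 581) and 200.5 in the IDR list (rank 324). The summit was nearer to other genes. It lay 58 bp downstream of the start of the divergent gene C28G1.2, in its 5′ untranslated region, within the non-coding RNA gene C28G1.8, and 39 bp from the tRNA gene WBGene00022947. The part of these genes in the peak was not tested. At the other 13 member summits the nearest tRNA, snoRNA, snRNA, microRNA or rRNA gene was at least 5984 bp away.

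The gene sec-3 (WBGene00018703, chrX:3095428-3099852, minus strand), an exocyst subunit that marks sites of secretion in yeast, had a summit 200 bp upstream in the peak chrX:3099850-3100253. Signal was 51.6 in replicate 1 (rank 1269), 68.4 in replicate 2 (rank 863) and 122 in the IDR list (rank 881). It is in operon-like position downstream of ztf-13. The stretch around its summit, chrX:3100002-3100102, is shown because it holds a match to TATAAA, in capitals, the core of the element that TBP binds. The match begins 25 bp upstream of the summit and so lies farther than 200 bp upstream of the annotated start. Whether TLF-1 binds it was not tested. TATAAA was found at 15.1% of all promoter peaks, against 30.5% of windows at all coding starts.

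sec-3: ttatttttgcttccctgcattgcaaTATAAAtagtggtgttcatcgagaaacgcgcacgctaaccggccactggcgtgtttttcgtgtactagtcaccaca

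Of the other exocyst genes, exoc-7 had a pooled signal of 66.7 (rank 2891), with 20.7 in replicate 1 and 36.4 in replicate 2. The gene sec-10 had a pooled signal of 38.8, and an IDR summit 153 bp downstream of its start (rank 1360) lay outside the window. No list held a promoter summit for sec-6 or exoc-8.

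VPS genes had IDR summits in 3 of their complexes. The ESCRT machinery, which sorts membrane proteins into the lumen of endosomes, had them at 2 of 11 genes (interval 5.14 to 47.7%). HOPS and CORVET had them at 2 of 8 (7.15 to 59.1%), and GARP and EARP at 1 of 5 (3.62 to 62.4%). The share of all coding genes was 5.28%. Retromer (3 genes), the pair of phosphatidylinositol 3-kinase genes and the pair of other VPS genes had none. In the pooled list a summit was found at 10 of 11 ESCRT genes (90.9%, interval 62.3 to 98.4%). It was found at 3 of 8 HOPS and CORVET genes (37.5%, interval 13.7 to 69.4%), against 25.7% of all coding genes. The intervals of ESCRT and of HOPS and CORVET overlap in both lists. Without replicate 2, that is in the 1880 strongest peaks of replicate 1, 3 VPS genes had a summit (vps-4, vps-51 and vps-60), and without replicate 1 there were 5, with vps-28 in place of vps-8.

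The gene vps-60 encodes a protein related to ESCRT-III (WBGene00018290, chrV:8605088-8606128, minus strand). Its peak, chrV:8606339-8606742, had a summit 413 bp upstream of the start in intergenic sequence, with a signal of 82.9 in replicate 1 (rank 458), 96.0 in replicate 2 (rank 410) and 181 in the IDR list (rank 396). The 101 bases at chrV:8606491-8606591 are shown because a run of purines there is followed by a stretch rich in CG pairs, which includes CGCGCGCG. Capitals mark all 10 CG pairs, not all of which lie in that stretch.

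vps-60: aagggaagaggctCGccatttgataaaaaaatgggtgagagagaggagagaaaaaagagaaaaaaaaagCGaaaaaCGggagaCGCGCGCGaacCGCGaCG

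The vps-60 peak stood close in rank to those of vps-4 and vps-51. The gene vps-4 encodes the AAA ATPase that takes ESCRT-III apart (WBGene00021334, chrI:1053894-1066899, minus strand). Its summit lay 264 bp upstream, with a signal of 99.9 in replicate 1 (rank 312), 90.5 in replicate 2 (rank 465) and 192 in the IDR list (rank 352). The gene vps-51 encodes a subunit of GARP and EARP (WBGene00015176, chrI:5803956-5807291, minus strand). Its summit lay 247 bp upstream, with a signal of 96.7 in replicate 1 (rank 339), 90.9 in replicate 2 (rank 462) and 189 in the IDR list (rank 360). It was nearer to lin-35, the divergent gene for the retinoblastoma-like subunit of the DREAM complex, whose start lay 171 bp from it. The replicates were close at both, with a ratio of replicate 1 to replicate 2 of 1.10 at vps-4 and 1.06 at vps-51.

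The remaining VPS peaks, at vps-39 and vps-8, were weaker. The gene vps-39, which encodes a HOPS subunit (WBGene00011625, chrV:14034323-14038378), had a summit 261 bp upstream. Its signal was 36.8 in replicate 1 (rank 2587), 68.6 in replicate 2 (rank 855) and 104 in the IDR list (rank 1229). The gene vps-8, which encodes a CORVET subunit (WBGene00016582, chrIV:12270490-12275992), had a summit 27 bp upstream. Its signal was 40.5 in replicate 1 (rank 2144), 46.3 in replicate 2 (rank 1957) and 84.1 in the IDR list (rank 1856 of 1880), close to the threshold. It is in operon-like position downstream of tag-335. The summits of the replicates lay 171 bp apart at vps-39, where replicate 2 had 2 overlapping peaks, and 104 bp apart at vps-8.

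Below the IDR threshold, vps-37 and vps-25, which encode subunits of ESCRT-I and ESCRT-II, had pooled signals of 72.6 and 62.9 (ranks 2438 and 3236). In replicates 1 and 2 their signals were 35.4 and 35.9 at vps-37, and 37.2 and 32.9 at vps-25. The genes vps-11, vps-16, vps-33.2 and vps-41 of HOPS and CORVET, and vps-22, vps-52, vps-13 and vps-34, had no promoter summit in any list. For vps-22 and vps-32.1 an IDR summit lay 616 and 622 bp upstream, outside the window (ranks 330 and 114).

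RAB genes had the lowest share in the pooled list of the 5 larger classes, 11 of 20 (55.0%, interval 34.2 to 74.2%). This is still above the 25.7% of all coding genes. The interval overlaps those of all other classes, and the SNARE genes and the exo-1 and exo-3 pair each stood at 50%, so the order is a description only. No promoter summit in any list was found at 9 of them, rab-3, rab-5, rab-10, rab-11.2, rab-19, rab-28, rab-30, rab-37 and rab-39. The share of all coding genes without any summit is not given here, so this count is not read as a trait of RAB genes. RAB-3 acts at synapses, RAB-5 on early endosomes and RAB-10 in endocytic recycling. An IDR summit lay 785 bp upstream of rab-5 (rank 168) and another 644 bp upstream of rab-11.1 (rank 1878), outside their windows. In the 1880 strongest peaks of 1 replicate alone, the number of RAB genes with a promoter summit was 1 without replicate 1 (rab-18) and 3 without replicate 2 (rab-7, rab-14 and rab-18).

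The gene rab-18 (WBGene00004277, chrIII:1078138-1080775, minus strand) encodes a GTPase of the endoplasmic reticulum and lipid droplets. Its summit lay 26 bp downstream of the start, in the 5′ untranslated region, in the peak chrIII:1080646-1080864. The signal was 121 in replicate 1 (rank 198), 177 in replicate 2 (rank 106) and 299.9 in the IDR list (rank 132). The window of the divergent gene kbp-4, which encodes a kinetochore protein and whose start lay 152 bp away, held the same summit. The 30 bases before the start of rab-18, chrIII:1080776-1080805, are shown because they hold a match to GCGCCA, an E2F-like core, in capitals.

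rab-18: caaacaaatccattttcGCGCCAtcgggtc

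The gene rab-7 (WBGene00004271, chrII:11965523-11966931, minus strand) encodes a GTPase of late endosomes. It had a summit 12 bp upstream of the start, which also lay in the 3′ untranslated region of W03C9.5. The replicates were least alike here, with a signal of 79.8 in replicate 1 (rank 496) and 34.5 in replicate 2 (rank 3680), a ratio of 2.31. The IDR list gave 111 (rank 1069). Of the RAB genes below the IDR threshold with summits in both replicates, rab-14 had a pooled signal of 70.9 (rank 2563), with 49.5 in replicate 1 and 29.7 in replicate 2. The next, rab-33, had a pooled signal of 25.8 (rank 18556).

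The repair gene exo-3 (WBGene00001372, chrI:11907525-11909280, minus strand) had an IDR summit 31 bp downstream of its start, with a signal of 40.9 in replicate 1 (rank 2086), 52.9 in replicate 2 (rank 1457) and 95.6 in the IDR list (rank 1444). That replicate 2 peak had its summit 120 bp downstream of the start, outside the promoter window. The replicate 2 summit within the window had a signal of 38.0 (rank 2977). The gene exo-3 is in operon-like position downstream of rbm-3.1. No list held a promoter summit for exo-1.

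**Figure D3:**
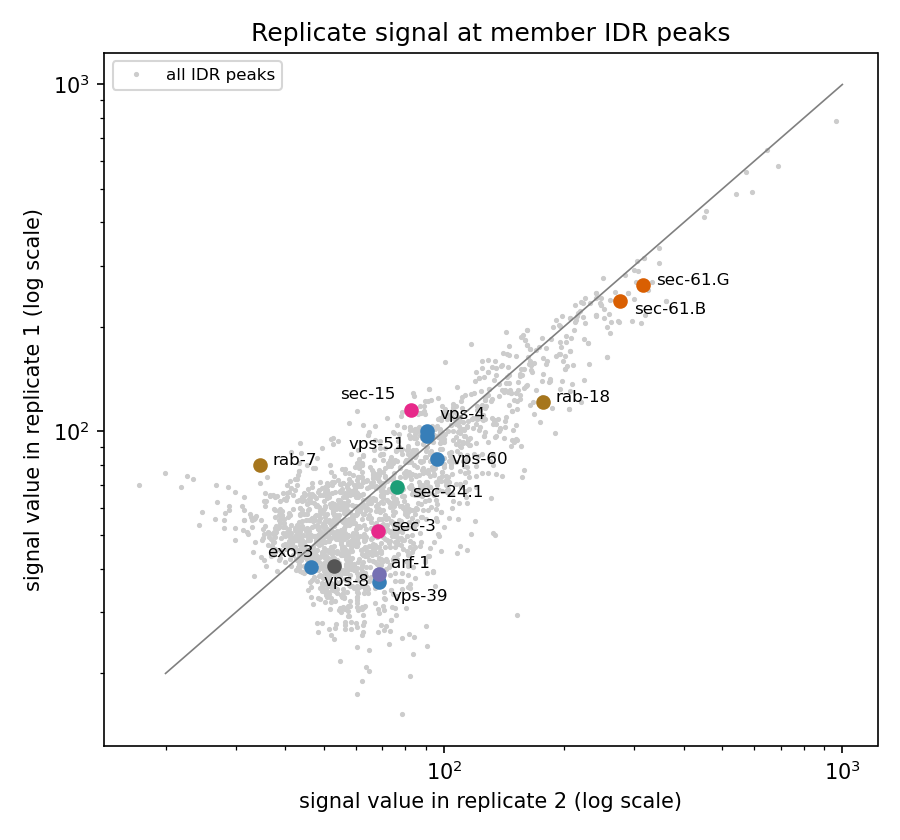
Signal value in replicate 1 against replicate 2 (both log scale) at the 14 member IDR peaks, coloured by class, over all IDR peaks found in both replicates (grey), with the line of equal signal. The point for rab-7 lies farthest above the line, at 79.8 against 34.5, and vps-39 and arf-1 lie farthest below it.

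All 14 member peaks had an overlapping peak in each replicate, and in each replicate all 14 genes had a summit in the promoter window. Of the 14, 9 were among the 1880 strongest peaks of both replicates (64.3%), against 1280 of all 1880 IDR peaks. The ratio of replicate 1 to replicate 2 ran from 0.536 at vps-39 to 2.31 at rab-7, with a median of 0.861, and the median over all IDR peaks was 0.915. Signal was higher in replicate 1 at 4 of the 14 peaks. In the 1880 strongest peaks of replicate 1 alone, arf-1, vps-39, vps-8 and exo-3 had no promoter summit. In those of replicate 2 alone, rab-7, vps-8 and exo-3 had none, so vps-8 and exo-3 had one in neither. Spearman's rho between the replicates was 0.793 over the 14 member peaks and 0.636 over all IDR peaks, as a description across peaks called against 1 shared control. The median signal of the member peaks in the IDR list was 164 (quartiles 106 and 198), against 128 (quartiles 101 and 192) for all 836 promoter peaks.

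The summits of the replicates lay at most 23 bp apart at the 10 strongest member peaks. At the 4 weakest, vps-39, arf-1, exo-3 and vps-8, the gap was 104 to 247 bp. This division into 10 and 4 was placed after the gaps were seen and is a description only. Each gap is between the strongest replicate peaks that overlap the IDR peak. At arf-1 and exo-3 each replicate had 2 such peaks, as did replicate 2 at vps-39, so these gaps can set different peaks against each other. At exo-3 the replicate 1 summit lay 126 bp upstream, and a weaker replicate 2 summit lay 80 bp upstream. The median gap was 20 bp for the members and 30 bp for all IDR peaks. Of the 14 summits, 11 lay upstream of the start, as does most of the window, which reaches 500 bp upstream and 100 bp downstream. The median position of the 14 summits was -204 bp (quartiles -263 and -16 bp). For all pairs of a gene and an IDR promoter summit it was -197 bp (quartiles -293 and -99 bp).

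**Figure D4:**
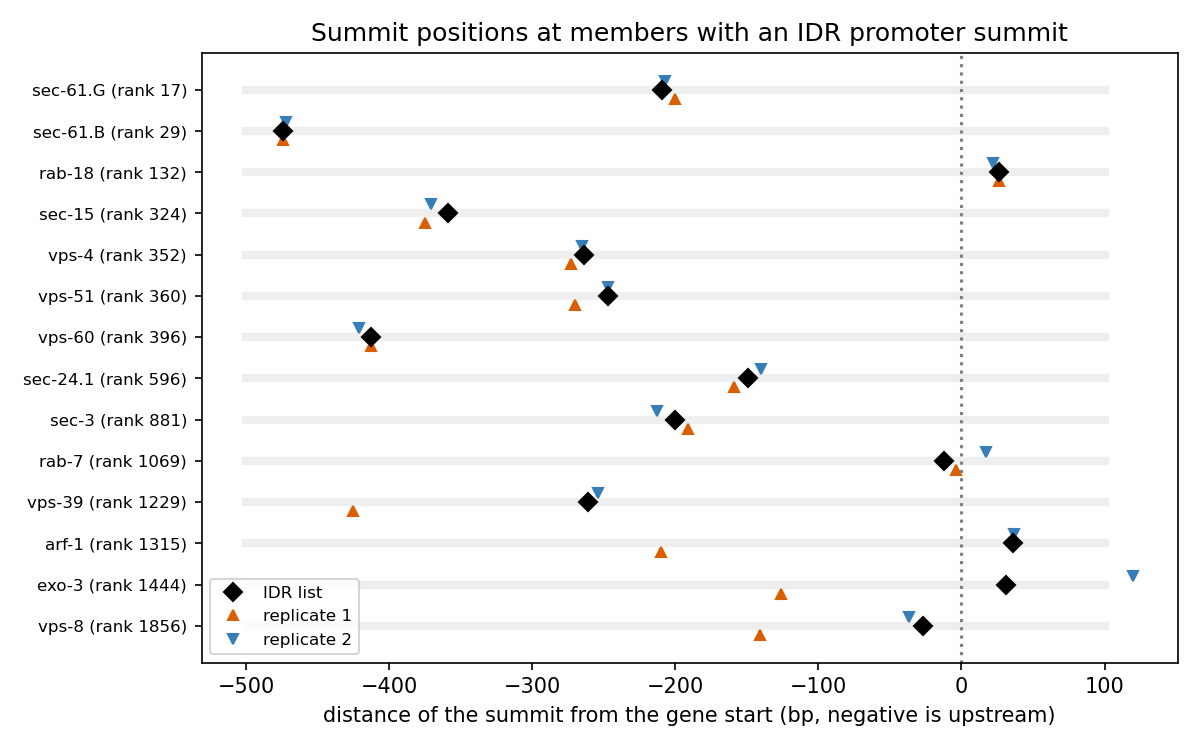
Distance of summits from the gene start (bp, negative is upstream) at the 14 members with an IDR promoter summit, ordered by rank in the IDR list. Diamonds are IDR summits, upward triangles replicate 1, downward triangles replicate 2, grey bars the promoter window. Triangles show the strongest replicate peak that overlaps the IDR peak. The symbols coincide within 23 bp for the replicates at the 10 upper genes and spread at the lower 4.

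Neighbouring genes shared some of these summits. The summit lay in the promoter window of another coding gene at 4 of the 14 peaks (28.6%), namely sec-61.B with trap-3, rab-18 with kbp-4, sec-15 with C28G1.2 and vps-51 with lin-35, against 26.8% of all 836 promoter peaks. At 3 of the 4, the start of the other gene was nearer than that of the member, the exception being rab-18. Of the 84 members, 24 were in operon-like position, and 4 of these had an IDR summit. No share over all coding genes is given for this position, so these counts are a description only. Many worm genes are trans-spliced, and for these the distance is to the annotated start and not to where transcription begins.

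Each of 5 short motifs was sought on both strands in the 201 bp around the summit. GCGCCA, an E2F-like core, was found at 2 of 14 member peaks, rab-18 and vps-4, at 20.7% of all promoter peaks, and in 3.25% of windows centred 100 bp upstream of all coding starts. TATAAA was found at 2 (sec-61.G and sec-3), against 15.1% of promoter peaks and 30.5% of windows at all starts. CCAAT was found at 4, against 28.3% and 32.3%. GACGTG, the core of elements of the unfolded protein response, was found at vps-4 and vps-51, against 6.10% and 4.29%. CACGTG, which TFEB-like regulators of lysosomal genes bind, was at none of the 14 member summits, against 6.22% and 4.23%. These are matches of letters and not sites of binding.

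Traffic genes outside the member list were described by 8 sets of symbols. Of 105 such genes, 13 had an IDR promoter summit (12.4%) and 53 a pooled one (50.5%), against 5.28% and 25.7% of all coding genes. The largest number was at partners of the translocon, 5 of 17 genes. They were trap-3, which shares the sec-61.B peak (signal 512), spcs-2, a signal peptidase subunit (187), trap-1 (182), trap-2 (168) and dnj-29, a DnaJ protein of the SEC63 type (148). The spcs-2, trap-2 and dnj-29 summits also lay in the windows of mrg-1, ile-2 and ndua-2. None of the 6 genes in the cargo receptor set, which took only symbols beginning with tmed-, had an IDR promoter summit. Further summits were at 3 of 25 SNARE genes (syx-5, bet-2 and vamp-7), rbg-3 among 25 RAB regulators, apb-1 among 13 clathrin and adaptor genes, trpp-11 among 10 TRAPP genes and snx-13 among 7 sorting nexins. The rbg-3 peak, the strongest after trap-3 at 228, also lay in the window of the ribosomal protein gene rps-0, and the syx-5 and snx-13 peaks in those of F55A11.1 and snr-1.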

How the data were processed

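Per the README files and labels, the authors deposited narrowPeak lists on assembly ce11: 1 from each replicate's alignments with a shared control, 1 from both sets of alignments with that control, and the IDR list derived from those 3. The signal value per peak is the authors' deposited value, and for its scaling, the peak caller, the aligner and the IDR threshold the entry is "not given in the sources used here". Depth is unknown, so no interval reflects it. Summits were column 2 plus column 10. Starts came from Ensembl release 115, on the same assembly, and sequence from its RefSeq copy. Where a window held several summits, the strongest was used. Replicate values are those of the strongest replicate peak overlapping the IDR peak by at least 1 bp. Members, classes, sets of other traffic genes and motifs were chosen with earlier results of these data known, and classes go by symbol. Named genes are all members with an IDR summit, up to 2 per class below the threshold with summits in both replicates, and the other traffic genes with an IDR summit, of which 1 is not reported here. Members with an IDR summit just outside the window, members with no summit in any list, and vps-28 were named after their values were seen. No tests were run. Window assignment was tested on simulated data with planted summits. Alternatives covered the window, each replicate alone, a stricter threshold, peak overlap, transcript starts and nearest starts. Scripts ran in Python 3.11.15 with pandas 2.3.3, numpy 2.4.6 and matplotlib 3.10.9, and Wilson intervals came from scipy 1.17.1.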

Additional observations from a re-analysis of the deposited data

How the results depend on the processing

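The count of 14 members stayed within 1.5 times in 7 settings, given here with the share of all coding genes that had a summit in parentheses (5.28% as reported). It was 21 in the wide window of 1000 bp upstream and 500 bp downstream (6.98%), 18 with any overlap of the peak (6.13%), 15 with all transcript starts (5.63%) and 11 with each summit given to the nearest start (4.13%). In the 1880 strongest peaks of the other replicate it was 12 without replicate 1 (4.94%) and 11 without replicate 2 (5.13%). Without exo-1 and exo-3, an alternative chosen after seeing the data, it was 13. It was 9 with a window of 250 bp upstream, where 3.45% of all coding genes had a summit, and 9 in the stronger 940 IDR peaks, where 3.12% had one. With 250 bp upstream there were 2 VPS, 1 exocyst and 1 translocon gene. In the stronger 940 there were 3 VPS genes and 1 RAB gene. In the wide window there were 4 RAB and 2 coat genes. With the nearest start only there were 1 exocyst and 1 translocon gene, since the sec-15 and sec-61.B summits go to their neighbours. Without each replicate the counts ran from 1 to 3 for RAB genes and from 3 to 5 for VPS genes. The median summit position of -204.5 bp ran from -271.5 to -230 bp without each replicate, and was -247 bp in the stronger 940 and -149 bp with the nearest start. The smaller counts in the narrower window and the stronger 940 follow from fewer summits being counted, and the other causes were not tested. No paired analysis was possible because there was 1 group. The effect of sequencing depth could not be examined without read counts.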

Other observations

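Of the 14 members with an IDR promoter summit, 13 lie on the minus strand (92.9%), against 52 of all 84 members (61.9%), 38 of the 58 members with a pooled summit (65.5%), and 505 of the 1054 coding genes with an IDR promoter summit (47.9%). The pattern was noticed after the values were seen and was not tested.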
